A study of Mus musculus with 10 samples.

Results

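The endoplasmic reticulum (ER) folds secreted and membrane proteins, and 32 genes of its folding machinery and of the stress responses that adjust it were followed through sorted skeletal muscle macrophages. The genes were taken by name from a list of lumenal chaperones, disulfide isomerases, translocon subunits, degradation factors, stress sensors and stress-induced factors. All 32 were present among the 17001 genes of the table. The bulk RNA sequencing compared 3 macrophage populations from hindlimb muscle of mice 4 weeks old. Monocyte-derived macrophages (MDMs, 3 libraries) and gal-3+ macrophages (4 libraries) were sorted from mdx mice (C57BL/10ScSn-Dmdmdx/J), which lack dystrophin, and skeletal muscle-resident macrophages (SkMRMs, 3 libraries) from wild-type (WT) C57BL/10 mice. The sort used galectin-3 (gal-3), the folate receptor Folr2 and CD52, and gal-3+ cells are macrophages high in gal-3 and low in Folr2. SkMRMs came only from WT and the others only from mdx muscle, so population and genotype cannot be told apart between them.

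Proteins enter the ER through the Sec61 channel and fold with the help of the HSP70 protein BiP, the HSP90 protein GRP94, the lectins calnexin and calreticulin, and disulfide isomerases. When unfolded proteins accumulate, the sensors IRE1α, PERK and ATF6 start the unfolded protein response. IRE1α splices *Xbp1* mRNA, ATF6 is cleaved to an active factor, and both raise chaperone and degradation genes. PERK phosphorylates the translation factor eIF2α, which slows protein synthesis and favors ATF4 and its targets, a branch shared with other stresses as the integrated stress response. Macrophages carry much secretory and lysosomal cargo through the ER.

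XBP1 and ATF6 are known to act on chaperone genes through the ER stress response element (ERSE), so the promoters are shown first, for the genes that hold its exact letters. RefSeq windows on GRCm38.p6, from 250 bases before to 50 bases after the start, were found for 28 of the 32 genes. There was no window for *Hyou1*, *Manf*, *Sec61a1* and *Atf6*. The start is that of RefSeq and can differ from the gene positions given below, which are from GENCODE. By GENCODE *Hspa5* begins at 34771970 and *Asns*, on the minus strand, at 7693254. The printed *Hspa5* ERSE and *Asns* match therefore lie inside those gene positions. ERSE was searched as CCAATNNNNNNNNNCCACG, ERSE-II as ATTGG and CCACG with any 1 base between them, the XBP1 core site as TGACGTG and the C/EBP-ATF response element (CARE) as TGATGNAA, each on both strands. ERSE occurred in 8 of the 28 genes against 0.119% of all 32851 windows, and ERSE-II in 2 of 28 against 0.0365%. Here and below, a gene counts if any of its windows holds a match, while the shares are of single windows. ERSE is a known element of chaperone genes, so these counts describe the promoters and are not a test. None of the matches printed here overlaps another. In the lines below, capitals mark the fixed letters of ERSE (in *Herpud1* of ERSE-II), and in *Hspa5* also the XBP1 core site. *Hsp90b1* has 2 matches and is shown at each, and matches on the opposite strand read CGTGG first.
Hspa5 (chr2:34771890-34772089, plus strand): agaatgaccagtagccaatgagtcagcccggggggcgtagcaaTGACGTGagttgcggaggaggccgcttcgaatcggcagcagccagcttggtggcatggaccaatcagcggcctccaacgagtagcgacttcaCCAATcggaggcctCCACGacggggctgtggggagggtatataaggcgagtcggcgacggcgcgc
Hsp90b1 (chr10:86705618-86705676, minus strand): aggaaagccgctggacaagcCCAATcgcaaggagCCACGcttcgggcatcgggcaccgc
Hsp90b1 (chr10:86705513-86705571, minus strand): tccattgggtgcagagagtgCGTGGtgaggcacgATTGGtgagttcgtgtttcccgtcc
Creld2 (chr15:88819500-88819558, plus strand): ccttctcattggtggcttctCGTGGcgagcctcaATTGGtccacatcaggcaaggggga
Dnajc3 (chr14:118937807-118937865, plus strand): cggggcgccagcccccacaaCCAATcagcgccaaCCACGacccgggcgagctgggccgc
Calr (chr8:84847055-84847113, minus strand): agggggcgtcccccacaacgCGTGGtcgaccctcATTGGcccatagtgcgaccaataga
Canx (chr11:50325780-50325838, minus strand): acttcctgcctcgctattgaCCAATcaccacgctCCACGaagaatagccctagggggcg
Pdia6 (chr12:17266471-17266529, plus strand): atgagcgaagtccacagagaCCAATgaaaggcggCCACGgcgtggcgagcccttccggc
Syvn1 (chr19:6046512-6046570, plus strand): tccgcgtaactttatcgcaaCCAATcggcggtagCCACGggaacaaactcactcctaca
Herpud1 (chr8:94386357-94386407, plus strand): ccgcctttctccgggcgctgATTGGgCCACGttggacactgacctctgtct

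The second ERSE-II match lay in *Dnajb11*, 8 bases into the transcript. The XBP1 core site occurred in *Hspa5* alone of the 28 genes, against 2.01% of all windows. CARE, the site of ATF4 and its partners, occurred in 4 of the 28 genes, against 3.97% of windows. The matches before the start are shown with the fixed letters in capitals, and the one in *Trib3* began 15 bases into the transcript. A match describes letters and was not tested for binding.
Asns (chr6:7693210-7693252, minus strand): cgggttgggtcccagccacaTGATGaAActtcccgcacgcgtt
Chac1 (chr2:119351029-119351076, plus strand): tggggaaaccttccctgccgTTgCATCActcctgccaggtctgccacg
Herpud1 (chr8:94386297-94386344, plus strand): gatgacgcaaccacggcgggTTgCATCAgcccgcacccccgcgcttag

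Most of the folding machinery stood in the same order in the sorted populations, highest in MDMs, between in gal-3+ cells and lowest in SkMRMs. Because these are bulk libraries of sorted cells, more cells of a type and more RNA per cell cannot be told apart. Libraries were compared with limma on log2(normalized count + 1), and a gene is called higher or lower at an adjusted p under 0.01, with or without a fold of at least 2. Fold changes on this scale are understated for low genes. Of the 32 genes, 22 were higher and 4 lower in MDMs than in SkMRMs, against 22.3% and 23.5% of all genes. Gal-3+ cells had 17 higher and 4 lower than SkMRMs, against 18.0% and 17.7%. MDMs had 14 higher and 0 lower than gal-3+ cells, against 13.0% and 14.5%. Without MDM library mdx5, the count of 14 was 9. A lower gene between these populations was also absent with edgeR and with DESeq2, and 1 gene, *Eif2ak3*, was lower at an unadjusted p under 0.05. In 12 of the 32 genes every MDM library lay above every gal-3+ library and every gal-3+ library above every SkMRM library, which held for 8.14% of all genes. The reverse order was found in 0 of 32 genes, against 6.22% of all genes.

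Calls at 2-fold or more were fewer. MDMs had 11 genes at least 2-fold higher than SkMRMs, against 8.81% of all genes, and 1 lower, against 18.0%. Gal-3+ cells had 3 higher, against 5.34%, and 1 lower, against 11.9%. Between MDMs and gal-3+ cells 0 genes differed by 2-fold in either direction with limma, edgeR or DESeq2, or at an unadjusted p under 0.05, against 3.32% and 8.19% of all genes. The median log2 fold change of the 32 genes was 0.76 for MDMs over SkMRMs, 0.54 for gal-3+ cells over SkMRMs and 0.32 for MDMs over gal-3+ cells. Over all genes the medians were -0.17, -0.11 and 0.03.

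**Figure D1:**
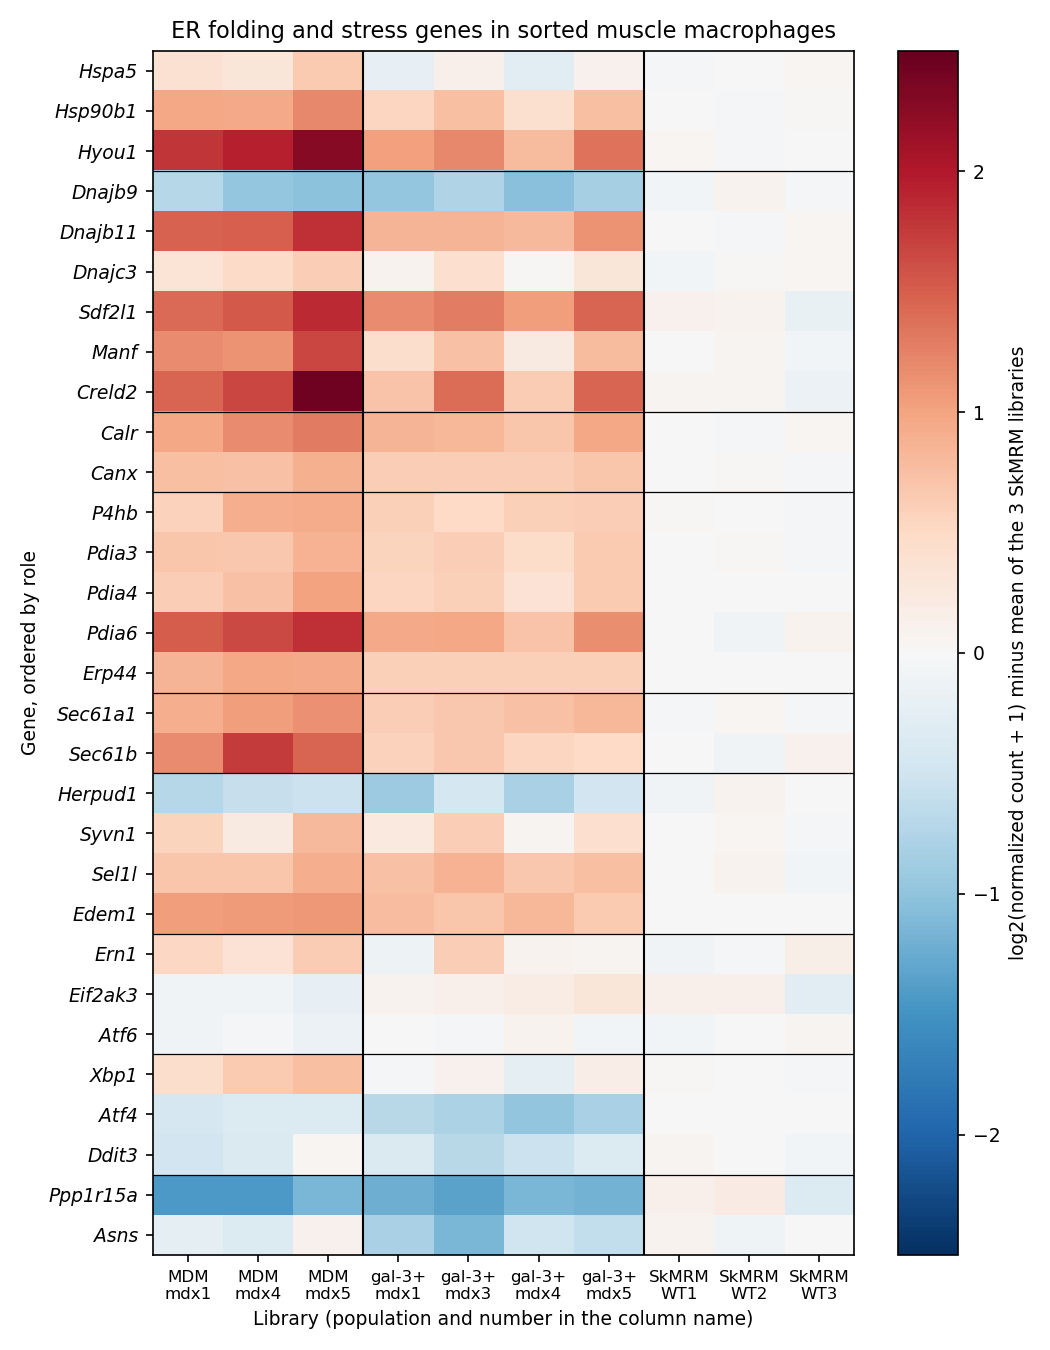
Log2(normalized count + 1) of 30 of the 32 genes (rows, ordered by role) in each library (columns), minus the mean of the 3 SkMRM libraries, without *Trib3* and *Chac1*, whose means were 41.1 or less in every population. Most chaperones, isomerases and translocon genes are deeper red in MDMs than in gal-3+ cells, while *Dnajb9*, *Herpud1*, *Atf4* and *Ppp1r15a* are blue in both.

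The 16 chaperones, co-chaperones, lectins and isomerases took 0.791 to 0.993% of normalized counts in MDM libraries, 0.657 to 0.788% in gal-3+ libraries and 0.581 to 0.614% in SkMRM libraries. The 3 ranges do not overlap. Divided by exon length, *Calr* led in MDMs with 20048 normalized counts per kb and in gal-3+ cells with 16030.2, while *Ppp1r15a* led in SkMRMs with 18826.

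The lumenal HSP70 and HSP90 chaperones differed in how far they rose. *Hspa5* (chr2:34771970-34777547, mm10), which encodes BiP, had 62295, 58556 and 75186 normalized counts in MDM libraries, 41226, 52009.6, 39205 and 51102 in gal-3+ libraries and 46081, 47429.6 and 49243 in SkMRM libraries. Every MDM library lay above all the others, whereas gal-3+ and SkMRM libraries overlapped. The log2 fold change was 0.45 (SE 0.11, adjusted p = 0.003) for MDMs over SkMRMs and 0.51 (SE 0.11, adjusted p = 0.0011) for MDMs over gal-3+ cells. Both calls were lost without MDM library mdx5, at adjusted p = 0.024 and 0.012, and the first also without SkMRM library WT1 (adjusted p = 0.015) or WT2 (adjusted p = 0.011). Gal-3+ cells did not pass the test against SkMRMs (log2 fold change -0.06, SE 0.11, adjusted p = 0.65).

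*Hyou1* (chr9:44379490-44392369), a large HSP70-type exchange factor of BiP, had 8152, 9016 and 11423 in MDM, 4774, 5399, 4086 and 6081 in gal-3+ and 2431, 2281 and 2365 in SkMRM libraries. The populations did not overlap, and its log2 fold changes were 2.00 for MDMs over SkMRMs (SE 0.13, adjusted p = 8.9e-10), 1.09 for gal-3+ cells over SkMRMs (SE 0.12, adjusted p = 1.2e-06) and 0.91 for MDMs over gal-3+ cells (SE 0.12, adjusted p = 1.9e-05). It was the largest rise among the 32 genes in MDMs against SkMRMs. *Hsp90b1* (chr10:86690209-86705509), which encodes GRP94, had 43484, 42725 and 50942 in MDM, 32181, 37047, 29176 and 37407 in gal-3+ and 22097, 21742 and 22486 in SkMRM libraries. It rose without overlap by a log2 fold change of 1.04 in MDMs (SE 0.10, adjusted p = 9.2e-08) and 0.61 in gal-3+ cells (SE 0.09, adjusted p = 3.3e-05) against SkMRMs, and by 0.43 in MDMs against gal-3+ cells (SE 0.09, adjusted p = 0.0012), a call lost without MDM library mdx5 (adjusted p = 0.013). An annotated pseudogene on the opposite strand overlaps *Hsp90b1*, and other annotated genes, small RNAs included, overlap *Dnajb9*, *Dnajb11*, *Manf*, *Pdia3*, *Pdia4*, *Pdia6*, *Erp44*, *Sec61a1*, *Herpud1*, *Syvn1*, *Eif2ak3*, *Atf6*, *Ddit3* and *Ppp1r15a*. Whether counting used the strand is not given in the sources used here, so their reads may include those of a neighbor.

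**Figure D2:**
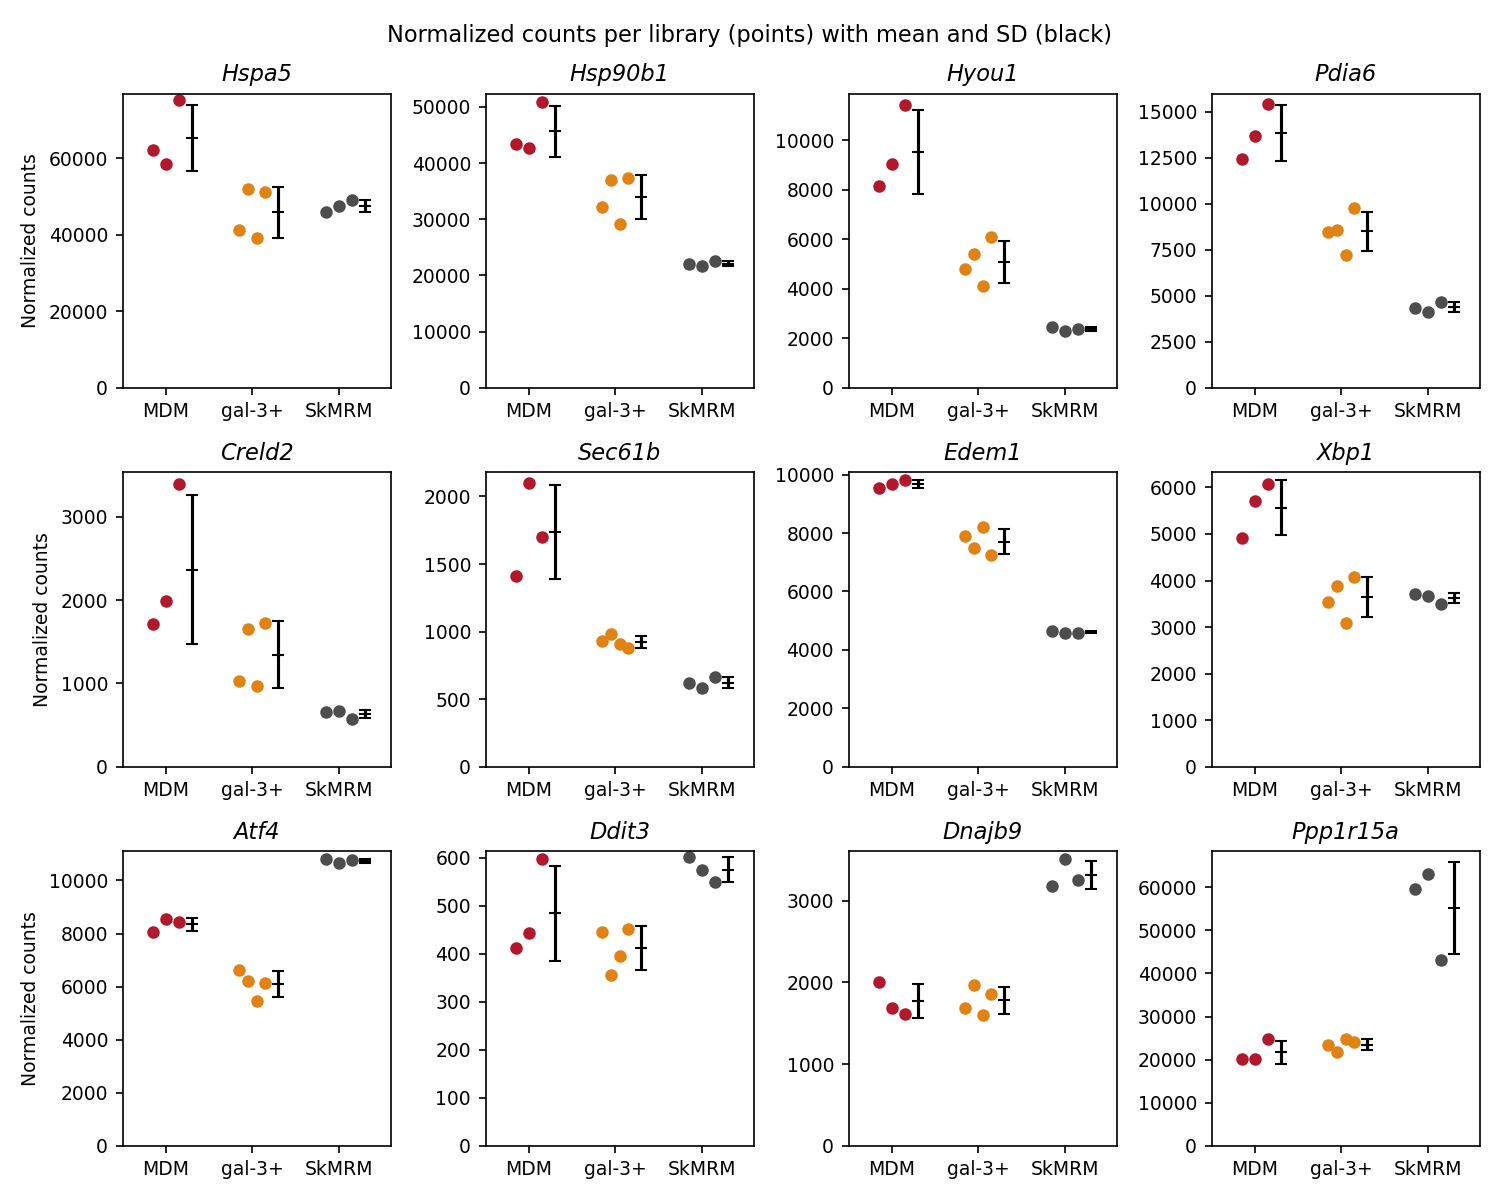
Normalized counts of 12 of the genes in each MDM, gal-3+ and SkMRM library (points), with mean and SD in black on axes that start at 0. *Hyou1*, *Pdia6*, *Hsp90b1*, *Sec61b* and *Edem1* form 3 steps without overlap, *Hspa5* and *Xbp1* stand apart in MDMs alone, and *Dnajb9* and *Ppp1r15a* are highest in SkMRMs.

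Co-chaperones and small folding factors mostly rose as well. *Creld2* (chr15:88819646-88826683), an ER-stress-induced factor with disulfide isomerase activity, had 1717, 1994 and 3393 in MDM, 1031, 1648, 973 and 1729.6 in gal-3+ and 658, 663 and 572 in SkMRM libraries. It rose by a log2 fold change of 1.85 in MDMs (SE 0.23, adjusted p = 3.1e-06) and 1.05 in gal-3+ cells (SE 0.22, adjusted p = 0.00076) against SkMRMs. The difference of 0.80 between MDMs and gal-3+ cells (SE 0.22, adjusted p = 0.0074) came with overlapping libraries, and without MDM library mdx5 it was 0.51 (adjusted p = 0.065). That call was also lost with TMM scaling (adjusted p = 0.0102), with DESeq2 (adjusted p = 0.024), with only MDMs and gal-3+ cells in the fit (adjusted p = 0.027) and without gal-3+ library mdx1 (adjusted p = 0.029) or mdx4 (adjusted p = 0.027) or MDM library mdx4 (adjusted p = 0.013).

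*Dnajb11* (chr16:22857845-22879634), a J-domain co-chaperone of BiP, had 5882, 6023 and 7509 in MDM, 3856, 3809, 3745 and 4625 in gal-3+ and 2109, 2067 and 2201 in SkMRM libraries. The 3 populations did not overlap, with log2 fold changes of 1.60 for MDMs over SkMRMs (SE 0.10, adjusted p = 6.6e-10), 0.91 for gal-3+ cells over SkMRMs (SE 0.09, adjusted p = 5.6e-07) and 0.69 for MDMs over gal-3+ cells (SE 0.09, adjusted p = 2.5e-05). *Manf* (chr9:106838312-106891979), a secreted factor that binds BiP, had 3502, 3323 and 4862 in MDM, 2079.7, 2545, 1804 and 2663 in gal-3+ and 1535, 1613 and 1459.6 in SkMRM libraries. It rose by 1.32 in MDMs (SE 0.15, adjusted p = 7e-07) and 0.55 in gal-3+ cells (SE 0.14, adjusted p = 0.0033) against SkMRMs, and by 0.77 in MDMs against gal-3+ cells (SE 0.14, adjusted p = 0.00027). The call of gal-3+ cells against SkMRMs was lost without SkMRM library WT1 or WT3 or gal-3+ library mdx3 or mdx5, at adjusted p of 0.012, 0.011, 0.011 and 0.014.

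*Sdf2l1* (chr16:17130138-17132383), a component of BiP complexes in the lumen, had 1979.6, 2155 and 2689 in MDM, 1672, 1795, 1523 and 2028 in gal-3+ and 800.2, 784 and 647 in SkMRM libraries. It was the largest rise of the 32 genes in gal-3+ cells, 1.24 against SkMRMs (SE 0.12, adjusted p = 3.1e-07), and 1.61 in MDMs (SE 0.13, adjusted p = 1.7e-08), while MDM and gal-3+ libraries overlapped (0.37, SE 0.12, adjusted p = 0.024). *Dnajc3*, which encodes the co-chaperone and PERK inhibitor p58IPK, averaged 5053 ± 489 in MDMs, 4203 ± 551 in gal-3+ cells and 3606 ± 156 in SkMRMs (SD, n = 3, 4 and 3). Of its comparisons only MDMs against SkMRMs passed (log2 fold change 0.48, SE 0.10, adjusted p = 0.00073), and without gal-3+ library mdx3 MDMs over gal-3+ cells passed too (0.34, adjusted p = 0.0087).

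*Dnajb9*, a J-domain protein that represses IRE1α, went the other way from the rest of its group. It averaged 1771 ± 208 in MDMs, 1784 ± 167 in gal-3+ cells and 3316 ± 172 in SkMRMs (SD, n = 3, 4 and 3), with every SkMRM library above all the others. Its log2 fold change was -0.91 in MDMs (SE 0.10, adjusted p = 9.4e-07) and -0.90 in gal-3+ cells (SE 0.10, adjusted p = 7.9e-07) against SkMRMs, and -0.01 between MDMs and gal-3+ cells (SE 0.10, adjusted p = 0.94).

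The lectin chaperones of glycoproteins both rose in either mdx population. *Calr* (chr8:84841850-84846934), which encodes calreticulin, had 50585, 58876 and 63757 in MDM, 46810.4, 45704, 41848 and 50306 in gal-3+ and 25927, 25071 and 26559 in SkMRM libraries. The log2 fold change was 1.15 in MDMs (SE 0.09, adjusted p = 1.3e-08) and 0.83 in gal-3+ cells (SE 0.09, adjusted p = 5e-07) against SkMRMs. Highest gal-3+ and lowest MDM library lay close together, and the difference of 0.32 between MDMs and gal-3+ cells (SE 0.09, adjusted p = 0.0072) lost its call under 10 of the 19 alternatives, edgeR among them. *Canx*, which encodes the membrane-bound relative calnexin, averaged 27156 ± 1582 in MDMs, 24325 ± 697 in gal-3+ cells and 15628 ± 378 in SkMRMs (SD, n = 3, 4 and 3). It rose by 0.80 in MDMs (SE 0.07, adjusted p = 4.3e-08) and 0.64 in gal-3+ cells (SE 0.07, adjusted p = 4.7e-07) against SkMRMs.

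All 5 disulfide isomerase genes were higher in MDMs and in gal-3+ cells than in SkMRMs, by log2 fold changes of 0.75 to 1.66 and 0.54 to 0.95. *Pdia6* (chr12:17266545-17284770), an isomerase that also attenuates IRE1α and PERK signaling, had 12439, 13673 and 15432 in MDM, 8449, 8573, 7203 and 9780.2 in gal-3+ and 4357, 4124 and 4658 in SkMRM libraries. Its populations did not overlap, and it led the group at 1.66 (SE 0.10, adjusted p = 4.8e-10) for MDMs over SkMRMs, 0.95 (SE 0.10, adjusted p = 3.9e-07) for gal-3+ cells over SkMRMs and 0.71 (SE 0.10, adjusted p = 2.2e-05) for MDMs over gal-3+ cells. *Erp44*, which retains client proteins by thiol bonds early in the secretory pathway, was even within populations at 3420.4 ± 144 in MDMs, 2713 ± 11.7 in gal-3+ cells and 1797 ± 16.6 in SkMRMs (SD, n = 3, 4 and 3). It passed all 3 comparisons, at 0.93 for MDMs over SkMRMs, 0.59 for gal-3+ cells over SkMRMs and 0.33 for MDMs over gal-3+ cells. *P4hb*, *Pdia3* and *Pdia4*, general isomerases of the lumen, did not pass between MDMs and gal-3+ cells, at 0.22, 0.18 and 0.25, although *P4hb* passed without MDM library mdx1 (0.33, adjusted p = 0.0012).

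Subunits of the Sec61 channel rose as well. *Sec61a1* (chr6:88503579-88518905), which encodes the pore, had 5052, 5563 and 5994 in MDM, 4127, 4289, 4507 and 4826 in gal-3+ and 2662, 2813 and 2643 in SkMRM libraries. *Sec61b* (chr4:47474658-47483242), a small subunit, had 1410.4, 2101 and 1703 in MDM, 928, 986, 906 and 876 in gal-3+ and 616, 582 and 667 in SkMRM libraries. Neither gene overlapped between populations. *Sec61a1* rose by 1.03 in MDMs (SE 0.08, adjusted p = 1.8e-08) and 0.71 in gal-3+ cells (SE 0.08, adjusted p = 1.2e-06) against SkMRMs, and *Sec61b* by 1.46 in MDMs (SE 0.13, adjusted p = 5.1e-08) and 0.57 in gal-3+ cells (SE 0.12, adjusted p = 0.00099). Between MDMs and gal-3+ cells the difference was 0.32 in *Sec61a1* (SE 0.08, adjusted p = 0.0041) and 0.89 in *Sec61b* (SE 0.12, adjusted p = 2.3e-05). The call of *Sec61a1* was lost with edgeR (adjusted p = 0.0102) and without gal-3+ library mdx1 or mdx3 or MDM library mdx4 or mdx5 (adjusted p = 0.0107 to 0.032).

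**Figure D3:**
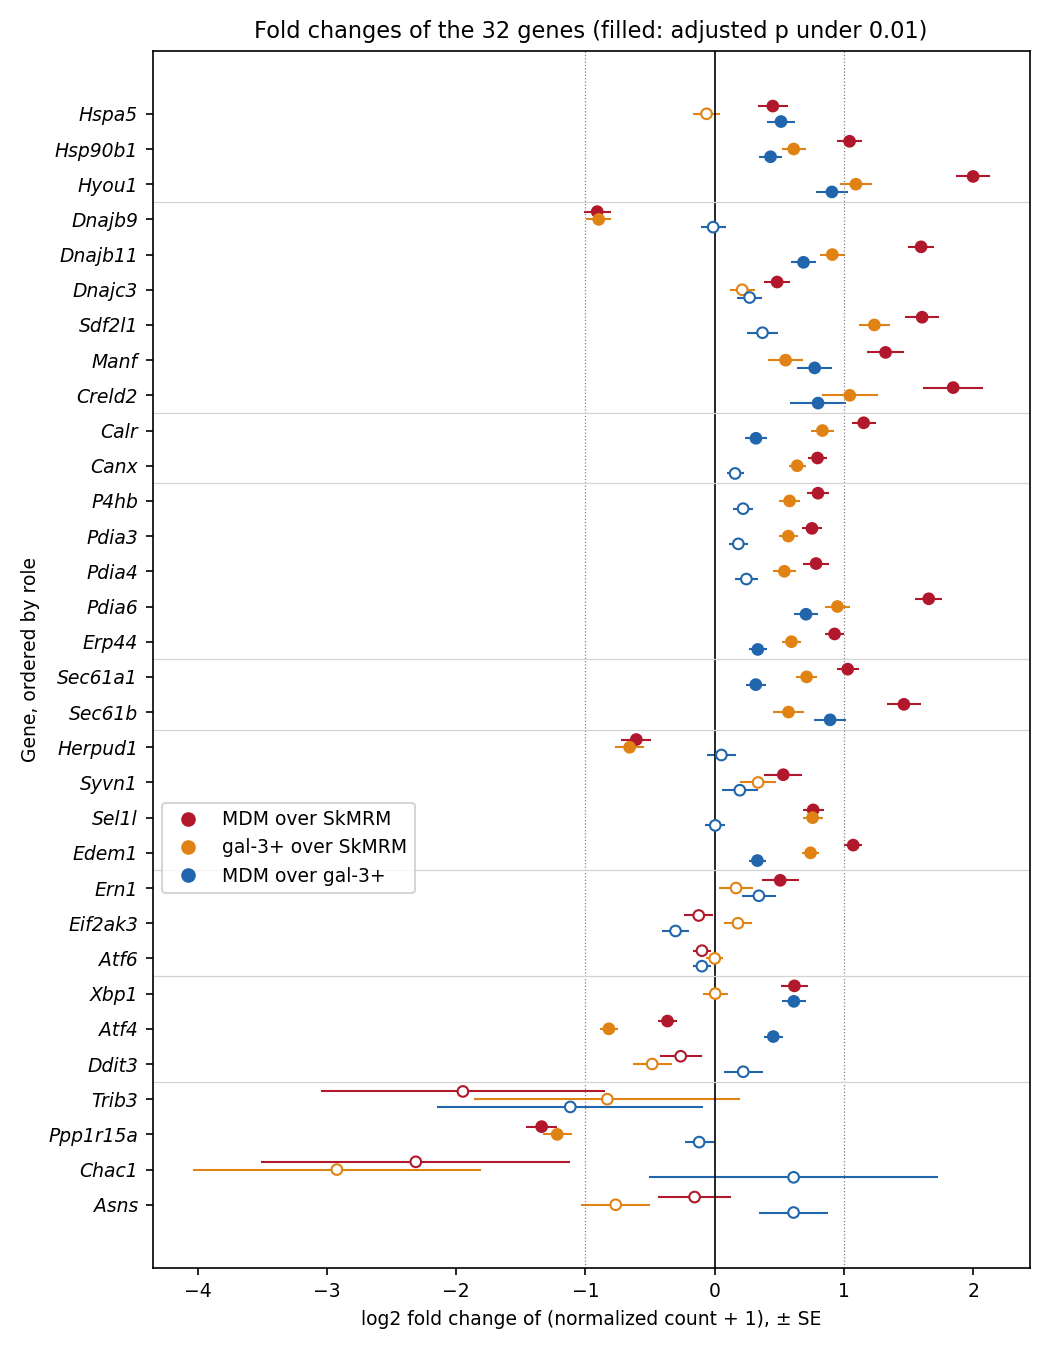
Log2 fold changes of all 32 genes with SE, by role from lumenal chaperones (top) to targets of the integrated stress response (bottom), for each pair of populations, with filled points at an adjusted p under 0.01 and dotted lines at a 2-fold change. MDMs over SkMRMs reach furthest right, at 2.00 in *Hyou1*, and the open points of *Trib3* and *Chac1* have SEs above 1.

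Genes of ER-associated degradation, which sends misfolded proteins to the proteasome, split. *Edem1* (chr6:108828641-108859356), a lectin that extracts misfolded glycoproteins, had 9559.5, 9679.5 and 9812 in MDM, 7912, 7475, 8194 and 7257 in gal-3+ and 4647, 4577 and 4593 in SkMRM libraries. It rose in 3 steps without overlap, by 1.07 in MDMs (SE 0.07, adjusted p = 9e-10) and 0.74 in gal-3+ cells (SE 0.07, adjusted p = 6.8e-08) against SkMRMs and 0.33 in MDMs against gal-3+ cells (SE 0.07, adjusted p = 0.0007). *Sel1l*, the adaptor of the ligase complex, averaged 6385 ± 549 in MDMs, 6357 ± 351 in gal-3+ cells and 3759 ± 214 in SkMRMs (SD, n = 3, 4 and 3). It rose by 0.76 in each mdx population against SkMRMs, and MDMs and gal-3+ cells differed by 0.00 (SE 0.08, adjusted p = 0.97). *Syvn1*, the ubiquitin ligase itself, passed only in MDMs against SkMRMs (0.53, SE 0.15, adjusted p = 0.0053), a call lost when any of 5 libraries was left out (adjusted p up to 0.04). *Herpud1*, a ubiquitin-like scaffold of the same complex, fell, at 1947 ± 132 in MDMs, 1894 ± 307 in gal-3+ cells and 2965 ± 170.3 in SkMRMs (SD, n = 3, 4 and 3). Its log2 fold changes were -0.61 in MDMs (SE 0.12, adjusted p = 0.0003) and -0.66 in gal-3+ cells (SE 0.11, adjusted p = 0.0001) against SkMRMs.

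Of the mRNAs of the 3 stress sensors, only that of *Ern1* passed a comparison. *Ern1*, which encodes IRE1α, averaged 3334 ± 309 in MDMs, 2673 ± 633 in gal-3+ cells and 2345 ± 219.6 in SkMRMs (SD, n = 3, 4 and 3), and passed only in MDMs against SkMRMs (0.51, SE 0.14, adjusted p = 0.0059). This call was lost without SkMRM library WT1 or WT2 or MDM library mdx1 or mdx5, at adjusted p of 0.019 to 0.032. Without gal-3+ library mdx3, MDMs also passed against gal-3+ cells (0.49, adjusted p = 0.001). *Eif2ak3*, which encodes PERK, and *Atf6* passed in 0 of 3 comparisons with limma, edgeR or DESeq2, with log2 fold changes between -0.30 and 0.18. At an unadjusted p under 0.05, limma found 1 difference, the lower *Eif2ak3* in MDMs against gal-3+ cells. Sensor mRNA is a level of transcript and says nothing of the sensor's activity.

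Transcription factors of the response followed different patterns. *Xbp1* (chr11:5520659-5525893) had 4911, 5716 and 6081 in MDM, 3541, 3889, 3092 and 4066 in gal-3+ and 3703, 3658 and 3493 in SkMRM libraries. It was higher in all MDM libraries than in any other, by 0.62 against SkMRMs (SE 0.10, adjusted p = 6.4e-05) and 0.61 against gal-3+ cells (SE 0.10, adjusted p = 8.3e-05), and gal-3+ cells differed from SkMRMs by 0.00 (SE 0.10, adjusted p = 0.98). Counts per gene do not separate spliced from unspliced *Xbp1*.

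*Atf4* (chr15:80255184-80257541), the effector of the integrated stress response, had 8070.1, 8533 and 8426 in MDM, 6618, 6216, 5451 and 6137 in gal-3+ and 10793, 10655 and 10788 in SkMRM libraries. The populations did not overlap and stood in another order than the chaperones, lowest in gal-3+ cells and highest in SkMRMs. Its log2 fold change was -0.37 in MDMs (SE 0.08, adjusted p = 0.00058) and -0.82 in gal-3+ cells (SE 0.07, adjusted p = 6.1e-08) against SkMRMs, and 0.45 for MDMs over gal-3+ cells (SE 0.07, adjusted p = 9e-05). *Ddit3* (chr10:127290774-127296288), which encodes the proapoptotic factor CHOP, had 413, 444 and 598 in MDM, 446, 355, 396 and 452 in gal-3+ and 601, 575 and 549 in SkMRM libraries. It passed no comparison, at -0.26 in MDMs (SE 0.16, adjusted p = 0.18) and -0.48 in gal-3+ cells (SE 0.15, adjusted p = 0.014) against SkMRMs. Without MDM library mdx5, or with only gal-3+ cells and SkMRMs in the fit, gal-3+ cells passed against SkMRMs at adjusted p = 0.0086 and 0.00999.

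Of the 4 targets of the integrated stress response, 0 were higher in any comparison with limma, edgeR or DESeq2. Over all genes, 22.3% were higher in MDMs and 18.0% in gal-3+ cells than in SkMRMs, and 13.0% in MDMs than in gal-3+ cells. With only 4 genes, a count of 0 lies near these shares. At an unadjusted p under 0.05, 1 of the 4 was higher, *Asns* in MDMs against gal-3+ cells. *Ppp1r15a* (chr7:45522916-45526268), which encodes the phosphatase subunit GADD34 that reverses eIF2α phosphorylation, had 20059.8, 20151 and 24775 in MDM, 23342, 21680.3, 24665 and 24144 in gal-3+ and 59671, 63092 and 43111 in SkMRM libraries. It was the one gene of the 32 called at least 2-fold lower. Its log2 fold changes were -1.34 in MDMs (SE 0.12, adjusted p = 5.9e-08) and -1.22 in gal-3+ cells (SE 0.11, adjusted p = 1.3e-07) against SkMRMs. MDM and gal-3+ libraries overlapped. *Asns*, which encodes asparagine synthetase, averaged 137 ± 23 in MDMs, 89.9 ± 16.8 in gal-3+ cells and 152 ± 9.86 in SkMRMs (SD, n = 3, 4 and 3) and did not pass, the lowest adjusted p being 0.025. *Trib3*, a pseudokinase, and *Chac1*, a glutathione-degrading enzyme, were low. *Trib3* had 0 to 44.3 in MDM, 5.33 to 43.9 in gal-3+ and 34.7 to 46.7 in SkMRM libraries, and *Chac1* had 0 to 17.6 in MDM, 0 to 19.4 in gal-3+ and 18.4 to 70 in SkMRM libraries. Neither passed, the lowest adjusted p being 0.039, for *Chac1* in gal-3+ cells against SkMRMs (log2 fold change -2.92, SE 1.12). Every MDM library lay below every SkMRM library in *Chac1* (-2.31, SE 1.19, adjusted p = 0.11).

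Immediate early and heat shock genes are known to respond to cell isolation. Of 13 such genes, 9 were lower and 3 higher in MDMs against SkMRMs (23.5% and 22.3% of all genes). In gal-3+ cells against SkMRMs, 6 were lower and 2 higher (17.7% and 18.0% of all genes). MDMs had 8 lower and 0 higher than gal-3+ cells (14.5% and 13.0% of all genes). In that comparison 1 was higher with DESeq2, 0 with edgeR and 1 at an unadjusted p under 0.05. *Ppp1r15a* itself did not pass between MDMs and gal-3+ cells (-0.12, SE 0.11, adjusted p = 0.42). The summed counts of the 13 genes were 196379.8 to 217928 in MDM, 283606 to 303758 in gal-3+ and 406745 to 449306 in SkMRM libraries. *Jun*, for example, averaged 22876 ± 1396 in MDMs, 40784 ± 1966 in gal-3+ cells and 116182 ± 5844 in SkMRMs (SD, n = 3, 4 and 3). Their part in the lower *Ppp1r15a*, *Atf4*, *Dnajb9* and *Herpud1* was not tested.

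Genes with ERSE or ERSE-II letters in the promoter window included ones of either direction. Of the 8 with ERSE, 8 were higher in MDMs and 5 in gal-3+ cells than in SkMRMs (22.3% and 18.0% of all genes). Their median log2 fold changes were 0.92 and 0.62. Of the 18 with a window and neither element, 10 were higher and 3 lower in MDMs (22.3% and 23.5% of all genes). In gal-3+ cells 8 were higher and 3 lower (18.0% and 17.7% of all genes), and the medians were 0.56 and 0.17. The groups also differ in role. The 18 include *Ern1*, *Eif2ak3*, *Xbp1*, *Atf4*, *Ddit3* and the 4 targets of the integrated stress response, and the 8 hold only chaperone, isomerase and degradation genes. Letters and role are not separated here. *Herpud1*, which holds both ERSE-II and CARE, fell. Of the 4 genes with CARE, 0 were higher than in SkMRMs in MDMs or gal-3+ cells by limma (22.3% and 18.0% of all genes). With only 4 genes, that count lies near these shares, and *Trib3* and *Chac1* were low. At an unadjusted p under 0.05 with limma, edgeR or DESeq2, 0 of the 4 were higher. The groups of genes are small and are described without a test.

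In either mdx population, 1 library held the highest value of more than its share of the genes. MDM library mdx5 was the highest MDM library in 25 of the 32 genes, against 32.5% of all genes, and mdx1 the lowest in 18, against 35.6%. In gal-3+ cells library mdx5 was the highest in 17 genes, against 21.6% of all genes, and mdx4 the lowest in 18, against 24.0%. SkMRM libraries WT1, WT2 and WT3 were highest in 11, 11 and 10 genes, against 32.8%, 28.6% and 38.6% of all genes. WT3 was the lowest SkMRM library in 16 of the 32 genes, against 33.2%. The median coefficient of variation over the 32 genes was 11.6% in MDMs, 10.7% in gal-3+ cells and 4.41% in SkMRMs. *Hspa5* and *Creld2* show it, with 75186 and 3393 in MDM library mdx5 and at most 62295 and 1994 in the other MDM libraries.

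The neighboring machinery was followed in 10 further lists with 186 genes in the table, none of them among the 32. Of these, 98 were higher and 25 lower in MDMs and 81 higher and 23 lower in gal-3+ cells than in SkMRMs, and 47 higher and 20 lower in MDMs than in gal-3+ cells. Over all genes, 22.3% were higher and 23.5% lower in MDMs than in SkMRMs, 18.0% higher and 17.7% lower in gal-3+ cells than in SkMRMs, and 13.0% higher and 14.5% lower in MDMs than in gal-3+ cells. The median log2 fold changes of the 186 genes were 0.39, 0.31 and 0.13, against -0.17, -0.11 and 0.03 over all genes. Of 19 genes of the translocon and signal peptide processing, 18 were higher in MDMs and 13 in gal-3+ cells than in SkMRMs, and 11 in MDMs than in gal-3+ cells. *Spcs3*, a signal peptidase subunit, averaged 3554 ± 240.1 in MDMs, 2692 ± 144 in gal-3+ cells and 1232 ± 150.2 in SkMRMs (SD, n = 3, 4 and 3). Of 12 genes of the oligosaccharyltransferase, which attaches the glycan, 11 were higher in MDMs and 9 in gal-3+ cells. In either list 0 genes were lower than in SkMRMs with limma, edgeR or DESeq2, and 0 at an unadjusted p under 0.05. *Rpn1*, a subunit of the transferase, averaged 11368 ± 1411 in MDMs, 8269 ± 598 in gal-3+ cells and 4697 ± 177 in SkMRMs, and *Srp19*, of the signal recognition particle, *Sec61g*, of the channel, and *Tmem258*, of the oligosaccharyltransferase, rose in MDMs against SkMRMs by 1.22, 1.18 and 1.07. *Stt3b*, its catalytic subunit, rose by 1.12 in MDMs and 0.75 in gal-3+ cells against SkMRMs.

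Of 22 further genes of ER-associated degradation, 12 were higher in MDMs and 14 in gal-3+ cells than in SkMRMs (22.3% and 18.0% of all genes). With limma, edgeR or DESeq2 0 were lower in either (23.5% and 17.7% of all genes), and limma found 1 in each at an unadjusted p under 0.05. Between the mdx populations, 6 were higher and 4 lower in MDMs than in gal-3+ cells (13.0% and 14.5% of all genes). The conjugating enzymes *Ube2j1* and *Ube2j2* rose by 1.24 and 1.21 in MDMs against SkMRMs. *Sel1l3*, a relative of *Sel1l*, was at 174, 89.3 and 139 in MDM, 466, 451, 326 and 392 in gal-3+ and 9.33, 29.5 and 42.6 in SkMRM libraries, and so was highest in gal-3+ cells, with a log2 fold change of 4.08 over SkMRMs (SE 0.40, adjusted p = 2.8e-07). Of 13 genes of glycan trimming, 8 were higher and 2 lower in MDMs against SkMRMs (22.3% and 23.5% of all genes). In gal-3+ cells 7 of these 13 were higher and 2 lower (18.0% and 17.7% of all genes). Among them *Edem2* rose by 1.15 in gal-3+ cells, and *Uggt2* was lower, at -1.86 in MDMs and -1.87 in gal-3+ cells. The mannosidase gene *Man1a* averaged 5610.3 ± 79.6 in MDMs, 6563 ± 615 in gal-3+ cells and 12454 ± 1407 in SkMRMs (SD, n = 3, 4 and 3). Of 18 genes of vesicle export, 10 were higher and 1 lower in MDMs against SkMRMs, where 22.3% and 23.5% of all genes were, and 5 higher and 1 lower in gal-3+ cells, where 18.0% and 17.7% were. Its *Kdelr3*, a receptor that returns lumenal proteins, was lower in MDMs (-2.87). Of 20 cytosolic aminoacyl-tRNA synthetases, which charge tRNAs for translation, 12 were higher in MDMs and 8 in gal-3+ cells (22.3% and 18.0% of all genes). With limma, edgeR or DESeq2 0 of the 20 were lower (23.5% and 17.7% of all genes). At an unadjusted p under 0.05 limma found 1 lower in MDMs and 0 in gal-3+ cells. *Qars* rose by 1.04 in gal-3+ cells.

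**Figure D4:**
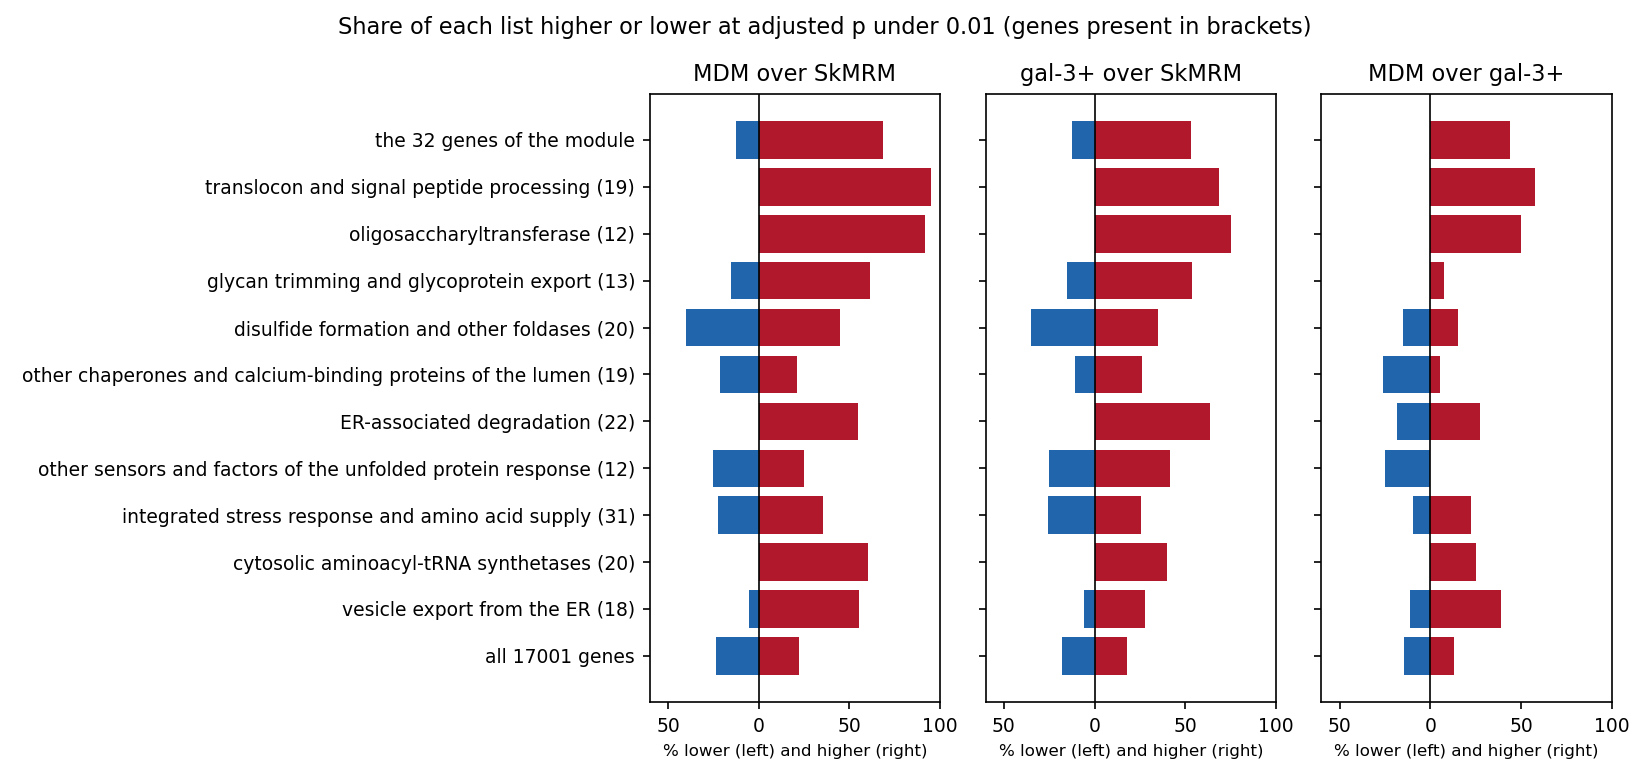
Share of each list that was higher (right) or lower (left) at an adjusted p under 0.01, for each pair of populations, with the 32 genes at the top and all genes at the bottom. Protein entry and glycosylation have no bars to the left, while foldases and stress-response lists have bars on either side.

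The other genes of disulfide formation and folding went in either direction. *Ero1l*, an oxidase that supplies disulfides, had 1975, 2288 and 2213 in MDM, 974, 978, 809 and 1078 in gal-3+ and 486, 444 and 452 in SkMRM libraries. Its log2 fold changes were 2.22 for MDMs over SkMRMs (SE 0.12, adjusted p = 6.4e-11), 1.05 for gal-3+ cells over SkMRMs (SE 0.11, adjusted p = 6.5e-07) and 1.17 for MDMs over gal-3+ cells (SE 0.11, adjusted p = 4.5e-07), so that it passed 2-fold in all 3. Its relative *Ero1lb* rose by 1.70 in MDMs and 1.37 in gal-3+ cells against SkMRMs, and the thioredoxin-related *Tmx4* by 1.27 in MDMs and 1.37 in gal-3+ cells. Other thiol oxidants, named after their values were seen, were lower in MDMs than in SkMRMs, *Prdx4* at -1.03 (adjusted p = 1.8e-05) and *Qsox1* at -0.53 (adjusted p = 0.0023). Of the 20 genes of this list, 9 were higher and 8 lower in MDMs (22.3% and 23.5% of all genes), and 7 higher and 7 lower in gal-3+ cells (18.0% and 17.7% of all genes).

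Several of the largest falls were in genes that fibroblasts and tenocytes also express. *Serpinh1*, the collagen chaperone HSP47, had 1407, 1838 and 1861 in MDM, 2611, 3015, 2435 and 3553 in gal-3+ and 9053, 6407 and 4819 in SkMRM libraries. Its groups did not overlap, at log2 fold changes of -1.95 in MDMs and -1.19 in gal-3+ cells. *Fkbp9*, a prolyl isomerase, had -3.30 in MDMs and -2.65 in gal-3+ cells, and *Rcn3*, a calcium-binding protein of the lumen, -4.12 in MDMs and -3.27 in gal-3+ cells. *Creb3l1*, a membrane-bound factor for secretory and collagen genes, had -1.65 in MDMs and -1.97 in gal-3+ cells. The prolyl isomerase gene *Fkbp14* had -2.77 in MDMs and -2.36 in gal-3+ cells and *Fkbp7* -1.78 in gal-3+ cells, and all of these were called. SkMRM libraries also held more *Col1a1*, with 24120.2, 26748 and 26979 in MDM, 33495, 28279, 20656 and 31134 in gal-3+ and 840622, 480155 and 328887 in SkMRM libraries.

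SkMRM library WT1 held the most *Col1a1* and *Serpinh1* of the SkMRM libraries and WT3 the least. The log2 difference between WT1 and WT3 was -0.25 to 0.47 (median 0.01) over 30 of the 32 genes. These 30 have a mean of at least 100 in SkMRMs. Over 18 genes of the other lists it was -0.31 to 1.19 (median 0.57), and over all genes -7.35 to 10.9 (median -0.01). The 18 have a mean of at least 100 and were chosen as at least 2-fold lower in MDMs than in these SkMRM libraries. The ranges are therefore described without a test. Against SkMRMs, 7 of 10 fibroblast and tenocyte markers were lower in MDMs and 10 of 10 in gal-3+ cells (23.5% and 17.7% of all genes). By limma, edgeR, DESeq2 or an unadjusted p under 0.05, 0 of these markers were higher. Their sums were 74000.1 to 82688 in MDM, 58182 to 87329 in gal-3+ and 587276 to 1416484 in SkMRM libraries, and only *Mkx* was at 0, in 1 MDM library. The part of fibroblast or tenocyte RNA in the lower *Serpinh1*, *Fkbp9*, *Rcn3* and *Creb3l1* was not tested. Summed macrophage markers, given below, were lowest in SkMRM libraries. The part of other cells' RNA in the rises of the 32 genes against SkMRMs was not tested either.

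**Figure D5:**
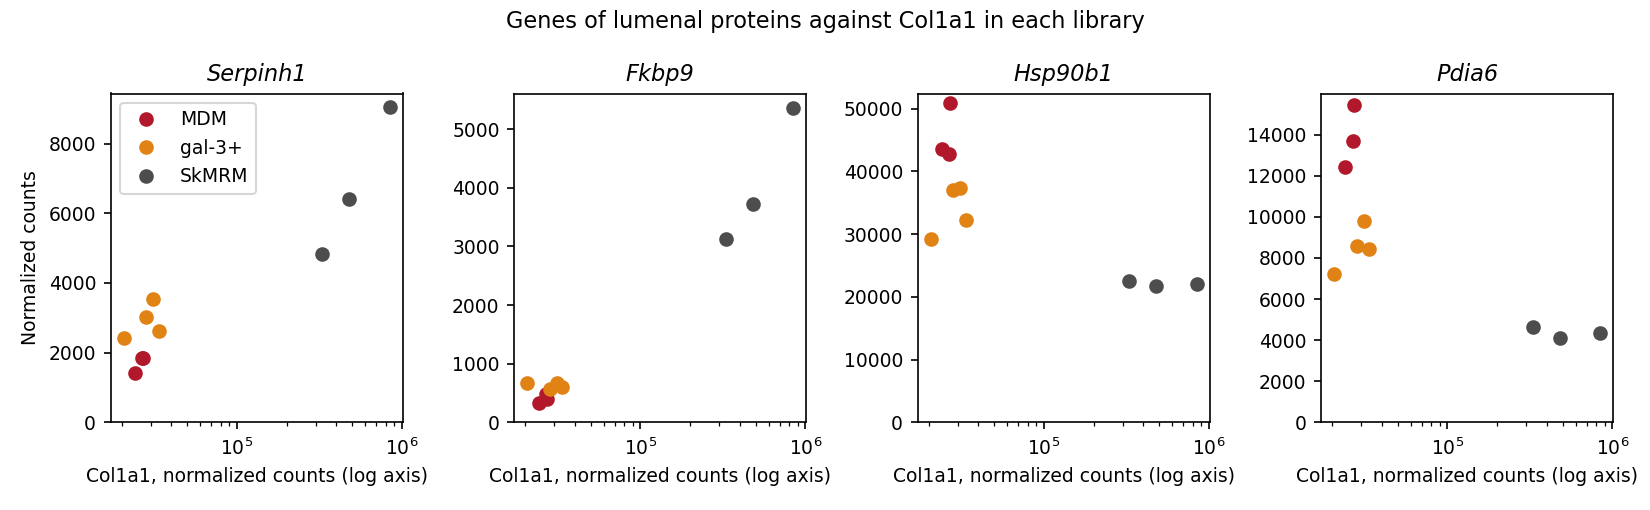
Normalized counts of *Serpinh1*, *Fkbp9*, *Hsp90b1* and *Pdia6* (vertical axes from 0) against *Col1a1* (horizontal log axis) in each library. *Serpinh1* and *Fkbp9* are highest in the SkMRM libraries, at 9053 and 5357 in WT1, where *Hsp90b1* and *Pdia6* are lowest and vary little.

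The wider integrated stress response and amino acid supply had 11 of 31 genes higher and 7 lower in MDMs, and 8 higher and 8 lower in gal-3+ cells, against SkMRMs. Over all genes these shares were 22.3% and 23.5% in MDMs and 18.0% and 17.7% in gal-3+ cells, so that the share lower in MDMs was near that of all genes. *Slc7a11*, the cystine importer, had 5213, 4506 and 5467 in MDM, 995, 1546, 842 and 1079 in gal-3+ and 443, 352 and 256 in SkMRM libraries. It rose in every comparison without overlap, by 3.88 in MDMs (SE 0.20, adjusted p = 3.4e-11) and 1.67 in gal-3+ cells (SE 0.18, adjusted p = 1.1e-06) against SkMRMs and 2.21 in MDMs against gal-3+ cells (SE 0.18, adjusted p = 1.1e-07). *Gpt2*, a mitochondrial alanine aminotransferase, had 149, 171 and 178 in MDM, 713, 749.5, 648 and 682 in gal-3+ and 1444, 1689 and 1491 in SkMRM libraries, which is the reverse order. *Atf3*, a stress-induced factor, had log2 fold changes of -1.97 in MDMs and -1.14 in gal-3+ cells against SkMRMs, and *Atf5* of -1.14 in MDMs and -1.19 in gal-3+ cells, all called. *Nupr1*, a stress-induced chromatin protein, also fell in both, to 1358 ± 241 in MDMs and 906 ± 57.7 in gal-3+ cells, against 2702 ± 187 in SkMRMs (SD, n = 3, 4 and 3). *Eif2s1*, which encodes eIF2α, rose by 1.19 in MDMs, and *Eif2b2*, a subunit of its exchange factor, by 1.07 in gal-3+ cells, against SkMRMs. Between MDMs and gal-3+ cells the amino acid carrier *Slc7a5* (1.24) and the mitochondrial folate enzyme *Mthfd2* (1.00) were higher and *Pck2*, a mitochondrial phosphoenolpyruvate carboxykinase (-1.67), lower in MDMs. Of 12 further sensors and factors, 3 were higher and 3 lower in MDMs, near the shares of all genes (22.3% and 23.5%), and 5 higher and 3 lower in gal-3+ cells (18.0% and 17.7% of all genes), with *Atf6b*, a relative of *Atf6*, higher by 1.12 in MDMs and 0.93 in gal-3+ cells. *Rtcb*, the ligase that joins *Xbp1* exons after IRE1α cleavage, had 2473, 2333 and 2246 in MDM, 3374, 3017, 3696 and 3689 in gal-3+ and 1674, 1416 and 1561 in SkMRM libraries and was highest in gal-3+ cells, without overlap. *Wfs1*, an ER membrane protein that restrains ATF6, was lower in MDMs than in gal-3+ cells (-1.28). Of 19 other lumenal chaperones, 4 were higher and 4 lower in MDMs, near the shares of all genes (22.3% and 23.5%), and 5 higher and 2 lower in gal-3+ cells (18.0% and 17.7% of all genes). Among them *Dnajb14* was higher in gal-3+ cells (1.03) and *Rcn1* lower, at -1.23 in MDMs and -1.12 in gal-3+ cells.

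The sorted cells carried the macrophage markers *Adgre1*, *Cd68*, *Csf1r*, *Itgam* and *Lyz2* in all 10 libraries, and their summed counts were 291293 to 352136 in MDM, 293613 to 378577 in gal-3+ and 190247 to 204790.4 in SkMRM libraries. Muscle fiber markers summed to 1700.2 to 2069.7 in MDM, 5435 to 7746 in gal-3+ and 8880.0 to 13797 in SkMRM libraries. Endothelial markers summed to 3408 to 4415 in MDM, 8645 to 12253 in gal-3+ and 3427 to 9473 in SkMRM libraries, and neutrophil markers to 1412 to 1796 in MDM, 368 to 522 in gal-3+ and 32.5 to 128 in SkMRM libraries. Markers of B and plasma cells, which have a large ER, summed to 1772 to 2344 in MDM, 2129 to 3035 in gal-3+ and 5777 to 6401 in SkMRM libraries, and dendritic cell markers to 291 to 446 in MDM, 308 to 507 in gal-3+ and 811 to 1099 in SkMRM libraries. The part of these markers in the results was not tested. The neutrophil gene *Camp* was at 0 in 2 of 3 MDM and 3 of 4 gal-3+ libraries and 1 of 3 SkMRM libraries. Library depth was 22395027 to 75907638 recovered reads. The titles call the samples biological replicates without saying which animals they came from, so p-values measure the spread between these libraries.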

How the data were processed

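Total RNA of sorted macrophages was sequenced in 10 libraries. The authors prepared libraries with a low-input stranded kit, mapped reads to mm10 with TopHat2 2.0.14 and GENCODE M9, assigned them to genes (HTSeq 1.99.2) and normalized them with DESeq2 1.28.1. The deposited signal is therefore a count divided by 1 size factor per library, and not by gene length. Division by the smallest step gave whole reads, within 0.001, for 100% of values. The deposited table also holds the authors' comparisons (means, fold changes, standard errors, test statistics and p-values), which were not used. Columns were matched to populations by name, since their numbers (mdx1, mdx3, mdx4, mdx5) differ from those in the titles.

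Log2(normalized count + 1) of all 10 libraries entered 1 linear model (limma 3.58.1, R 4.3.3, trended variance, 7 residual degrees of freedom), with Benjamini-Hochberg adjustment over 17001 genes. A minimum of 10 normalized counts in 3 libraries removed 0 genes. Genes were called at an adjusted p under 0.01, and for 2-fold calls also past 1 on the log2 scale, the thresholds of the paper's methods. The procedure was tested on simulated data. The changes put in were all larger than 2-fold and in gal-3+ libraries only, so smaller ones were not covered. All 32 genes are named. Values in every library are given for *Hspa5*, *Xbp1*, *Atf4*, *Ddit3* and those with a 2-fold call. Of the other lists, the genes named are up to 3 in a comparison with the largest rise or fall at a 2-fold call and a mean of at least 100, with values in every library for some of them. The genes and lists were chosen with earlier results of these data known. As alternatives, the pseudocount was 0.5 or 5, the minimum 10 or 50, the scaling TMM, the test edgeR 4.0.16 or DESeq2 1.42.0 (both from whole reads), or the fit held only the populations compared, the column number as a block, or 1 library fewer. Gene positions and exon lengths are from GENCODE M21 on mm10, where *Ddit3* has 2 entries and the longer was taken, and promoters from RefSeq on GRCm38.p6. The table has 22 date-like names in place of gene symbols.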

Additional observations from a re-analysis of the deposited data

Results flagged for a closer look

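*Dnajb11* in gal-3+ library mdx5 stood apart, at 4625 normalized counts against 3745 to 3856 in the other gal-3+ libraries. Its gap to the next library was 0.874 of the range of the 4 gal-3+ libraries, above the critical value of Dixon's test for 4 values. All 32 genes were looked at in this way, and chance alone marks about 1 group in 20.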

How the results depend on the processing

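The counts of called genes held within 1.5 times under the 19 alternatives, except where an MDM library was left out. The minimum of 10 is 1 of the 19 and removed 0 genes, so it repeats the main fit and could not differ. With each library left out in turn, genes higher in MDMs than in gal-3+ cells numbered 9 to 15 (main count 14, and 9 without MDM library mdx5). Genes at least 2-fold higher in MDMs than in gal-3+ cells numbered 0 to 2 (main 0, and 2, *Hyou1* and *Sec61b*, without MDM library mdx1), and genes at least 2-fold lower in MDMs than in SkMRMs 1 to 2 (main 1, and 2, with *Dnajb9*, without MDM library mdx1). Of 1818 single fold changes under the alternatives, 0 called ones reversed, 42 lost and 7 gained a call, and 27 uncalled ones changed sign. Residuals of gal-3+ and MDM libraries with the same column number correlated at -0.0279, 0.0102 and 0.0253 over all genes, low ones included. In the 32 genes, library mdx5 was the highest in 25 in MDMs and in 17 in gal-3+ cells. Whether libraries of the same column number share an animal cannot be told from this. The column numbers were not taken as pairs. With the number as a replicate block, which also joins WT with mdx libraries, MDMs had 16 genes higher than gal-3+ cells (*Dnajc3*, at adjusted p = 0.0083, and *Ern1*, at 0.0035, were gained), 22 were higher in MDMs than in SkMRMs and 16 in gal-3+ cells than in SkMRMs, where *Sec61b* lost its call. *Atf4* lost its own in MDMs against SkMRMs, at adjusted p = 0.023. TMM, edgeR and DESeq2 scaling moved the median of all genes by less than 0.1. Low counts limit *Trib3* and *Chac1* at every setting.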
